A study of Mus musculus with 16 samples.

Results

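The 10 genes described here, T, Eomes, Mixl1, Evx1, Cdx1, Cdx2, Mesp1, Wnt3, Aplnr and Kdr, are markers of the primitive streak and of the mesoderm that leaves it. They were picked by name out of 55421 genes in the count tables and all 10 passed the filter on low counts, as did 18150 genes in all. T and Aplnr were among those picked because they had been seen to lack reads in the Spen-/- libraries at day 7, so that comparison is given below as a description with no test. RNA-seq was run on female mouse embryonic stem cells (ESCs), an F1 hybrid of 129/Sv and Cast/Ei in which doxycycline (dox) switches on the endogenous Xist gene of the Cast X chromosome. All 16 libraries share this hybrid background and this inducible promoter. Wt cells were compared with Spen-/- clones, in which CRISPR/Cas9 had removed the complete open reading frame of Spen and left a puromycin resistance cassette. Each genotype was sampled in 4 conditions with 2 replicates each, namely ESCs at day 0 without dox, ESCs at day 0 after 4 days of dox, cells at day 3 of differentiation without dox and cells at day 7 of differentiation in dox.

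Differentiation was a monolayer culture without LIF in medium with serum and ascorbic acid, and dox was used at 2 µg/mL. Cells given dox were sorted for a dsRed reporter and cells without dox were not, so a difference between dox and no dox is also a difference between sorted and unsorted cells, and these cannot be told apart. All day 3 cells were without dox and all day 7 cells were in dox, so day 3 against day 7 cannot be told apart from dox and the sort. The ESCs were grown on irradiated fibroblast feeders, which were depleted by plating before differentiation.

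In the embryo the primitive streak forms where WNT and NODAL signalling are high in the posterior epiblast. Wnt3 encodes a ligand of that pathway, and the T-box factors T (Brachyury) and Eomes and the homeobox factor Mixl1 are switched on in the streak in response. Mesp1 then marks early mesoderm, Evx1, Cdx1 and Cdx2 mark the posterior streak and the tissue that it leaves, and the receptors Aplnr and Kdr mark mesoderm with cardiac, blood and endothelial fates. In cultured ESCs the streak genes are expressed in few cells until pluripotency is left. The annotation (GENCODE M21, mm10) places T (ENSMUSG00000062327) at chr17:8434423-8442496, Mesp1 (ENSMUSG00000030544) at chr7:79792241-79793788, Wnt3 (ENSMUSG00000000125) at chr11:103774150-103817957 and Aplnr (ENSMUSG00000044338) at chr2:85136225-85139923, and reads were counted over the exons of each gene.

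Between 7571566 and 14822867 reads per library fell on genes, and the deepest library was Wt day 0 dox replicate 1. The deleted gene Spen had 2466 reads in the 8 Wt libraries and 112 in the 8 Spen-/- libraries, at 16.2 to 43.5 against 0.129 to 5.45 CPM (counts per 1000000 reads of the scaled library), so it matched the labels. Both Spen-/- day 7 libraries had reads on fewer genes (14969 and 15324) than any of the other 14 libraries (16952 to 23458). With at most 1 ng of input RNA by the Smart-seq2 protocol and no molecular identifiers, a gene could have 41 reads in one replicate and 0 in the other, as Mixl1 did in the Spen-/- day 0 libraries. In bulk RNA, fewer cells of a type and less RNA per cell cannot be told apart.

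The sequences around the RefSeq starts of T and Mesp1 are shown, 2 of the genes that were at 0 reads in both Spen-/- day 7 libraries and well above 0 in both Wt day 7 libraries. RefSeq (GRCm38.p6) windows of 250 bases before to 50 bases after the gene start were at hand for 7 of the 10 genes. They were searched on both strands for CTTTGA, the core of the TCF/LEF motif through which WNT acts, and for AGGTGT, a core of the T-box motif, and matches are in capitals below. The T window lies on the plus strand at chr17:8434173-8434472 and the Mesp1 window on the minus strand at chr7:79793541-79793840, both printed 5′ to 3′ along the gene. The RefSeq start of T is that of GENCODE, while the RefSeq start of Mesp1 lies 198 bases inside the GENCODE gene, so most of the Mesp1 window is within that gene model.
T: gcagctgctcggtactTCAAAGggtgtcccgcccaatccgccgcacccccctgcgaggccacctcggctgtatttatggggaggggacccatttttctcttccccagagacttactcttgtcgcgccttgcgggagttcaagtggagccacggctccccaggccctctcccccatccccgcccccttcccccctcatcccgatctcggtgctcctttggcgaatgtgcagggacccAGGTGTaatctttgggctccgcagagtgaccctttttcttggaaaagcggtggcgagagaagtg
Mesp1: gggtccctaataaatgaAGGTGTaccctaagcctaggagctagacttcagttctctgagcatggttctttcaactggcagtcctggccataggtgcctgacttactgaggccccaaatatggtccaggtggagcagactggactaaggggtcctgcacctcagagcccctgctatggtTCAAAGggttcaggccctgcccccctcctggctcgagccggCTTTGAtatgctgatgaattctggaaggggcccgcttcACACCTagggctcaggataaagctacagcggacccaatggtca
The TCF/LEF letters were found in 2 of 7 windows (T and Mesp1) against 5257 of all 32851 promoter windows, and the T-box letters in 3 of 7 (T, Mesp1 and Evx1) against 4514 of 32851 (13.7%). The 2 windows printed are those that held both sets of letters, so they are not typical of the 7. Cdx2, which was also at 0 reads in both Spen-/- day 7 libraries, had a window with neither and is not printed. A match describes the letters only.

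T, the Brachyury factor that marks streak and nascent mesoderm, had the widest range of the 10 genes over the libraries, 7.73 on the log2(CPM + 1) scale. In Wt cells it was at 7.30 and 3.44 CPM at day 0, 29.1 and 3.89 CPM at day 0 with dox, 31.4 and 27.9 CPM at day 3, and 192 and 211 CPM at day 7. In Spen-/- cells it was at 2.10 and 0.954 CPM at day 0, 12.6 and 10.5 CPM at day 0 with dox, 17.7 and 25.8 CPM at day 3, and at 0 reads in both libraries at day 7. Both genotypes were thus higher at day 3 than at day 0 without dox in every library, and at day 7 the Wt libraries were the highest of all 16 while the Spen-/- libraries were the lowest. In Wt cells with dox T rose from day 0 to day 7 by 3.60 ± 0.783 (log2 fold change ± SE, 12.2-fold, edgeR adjusted p = 0.0256). T was noted beforehand for lacking Spen-/- reads at day 7, which is plain only where Wt day 7 is high. This test of T is thus no independent support for a rise. The adjusted p was between 0.00399 and 0.132 when single libraries were left out, and it missed 0.05 without Wt day 0 dox replicate 2 (0.0559), Wt day 7 dox replicate 1 (0.114) or Wt day 7 dox replicate 2 (0.132). The fold itself rests on the 2 day 0 dox libraries, which differ greatly from each other, and was 5.70 on the log2 scale without Wt day 0 dox replicate 1 and 2.74 without replicate 2. At day 3 T was 5.47-fold its day 0 level in Wt cells (adjusted p = 0.168) and higher by 3.81 ± 0.836 on the log2 scale in Spen-/- cells (adjusted p = 0.0586), with no call in either.

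Eomes, a T-box factor of the streak and of the early endoderm and mesoderm, was highest in the day 3 libraries of both genotypes and not in those of day 7. It was at 6.60 and 8.46 CPM in Wt cells at day 0, 14.5 and 11.2 CPM with dox, 22.8 and 22.2 CPM at day 3, and 11.5 and 10.5 CPM at day 7. Spen-/- cells had 12.3 and 0 CPM at day 0, 24.7 and 5.47 CPM with dox, 43.0 and 37.4 CPM at day 3, and 4.63 and 0 CPM at day 7. The day 3 libraries lay above the day 0 libraries in both genotypes, yet the log2 fold changes of 1.58 ± 1.57 in Wt (adjusted p = 0.721) and 2.71 ± 1.63 in Spen-/- cells (adjusted p = 0.491) were within 2 SE of 0. At day 3 both Spen-/- libraries lay above both Wt libraries. A predicted antisense gene that overlaps Eomes, Gm33460, had few reads, and the strand setting of the counting was not stated, so reads of the pair could not be told apart there.

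Mixl1, a homeobox factor of the streak, differed widely between replicates. Wt cells had 2.78 and 3.31 CPM at day 0, 33.9 and 5.36 CPM with dox, 26.8 and 5.58 CPM at day 3, and 33.8 and 90.6 CPM at day 7. Spen-/- cells had 0 and 5.59 CPM at day 0, 4.92 and 5.25 CPM with dox, 20.4 and 13.0 CPM at day 3, and 3.99 and 0 CPM at day 7. At day 3 the genotypes overlapped, and at day 7 both Spen-/- libraries were below both Wt libraries. The day 3 difference of 2.41 ± 1.65 in Wt and 2.59 ± 1.67 in Spen-/- cells (log2 fold change ± SE) had adjusted p values of 0.555 and 0.523.

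Evx1, Cdx1 and Cdx2 are homeobox genes of the posterior streak and of the tissues that elongate the body axis. Evx1 had 1 and 0 reads in Wt day 0 libraries, 31 and 4 with dox, 13 and 6 at day 3 and 33 and 27 at day 7, against 0 and 0, 9 and 0, 21 and 19, and 0 and 0 in the Spen-/- libraries. Cdx2 was at 0 reads in all 4 day 0 libraries without dox, had 16 and 19 reads in Wt and 67 and 16 in Spen-/- cells at day 3, and 191 and 158 in Wt but 0 and 0 in Spen-/- cells at day 7. Its day 3 level was at least 9.79-fold the day 0 level in Wt and at least 22.0-fold in Spen-/- cells, with 3 reads over the 2 libraries as the floor that a count of 0 allows, and neither passed the test (adjusted p = 0.205 and 0.158). Such floors, and the Wilson intervals of allele shares below, cover counting error only. Cdx1 never exceeded 16 reads in a library and is not read further. Evx1os, an antisense gene that overlaps Evx1, had 59 and 80 reads in the Wt day 7 libraries and 93 and 67 in the Spen-/- day 3 libraries, more than Evx1 itself in each, and reads of the pair could not be told apart.

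Mesp1, the basic helix-loop-helix factor of the first mesoderm, was found mostly in Wt cells at day 7. It had 142 and 143 reads in those libraries, 20 and 0 reads in Wt day 3 libraries, 2 and 0 in Wt day 0 dox libraries, and 0 in the other 10 libraries, all 8 Spen-/- libraries among them. The day 7 difference in Wt cells had an adjusted p of 0.198, with only 2 reads at day 0.

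Wnt3, the ligand, was higher at day 3 than at day 0 in all libraries of both genotypes and reached its highest single value in a Spen-/- library. Wt cells had 4.00 and 3.83 CPM at day 0, 18.1 and 11.0 CPM with dox, 48.6 and 36.9 CPM at day 3, and 35.3 and 57.0 CPM at day 7. Spen-/- cells had 1.63 and 3.68 CPM at day 0, 17.6 and 13.4 CPM with dox, 76.7 and 48.8 CPM at day 3, and 8.74 and 0 CPM at day 7. Both Spen-/- libraries lay below both Wt libraries at day 0 and day 7 and, by a small margin, above them at day 3, and with dox at day 0 the genotypes overlapped. The day 3 level was 10.9-fold the day 0 level in Wt (log2 fold change 3.44 ± 1.19, adjusted p = 0.211) and 23.6-fold in Spen-/- cells (4.56 ± 1.26, adjusted p = 0.121).

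Aplnr, the apelin receptor of migrating mesoderm, had 0 reads in 7 of the 8 day 0 libraries and 27 in Wt day 0 dox replicate 1. At day 3 it had 70 and 16 reads in Wt and 12 and 23 reads in Spen-/- cells. At day 7 it had 1194 and 1376 reads in Wt cells (101 and 125 CPM) and 0 reads in both Spen-/- libraries. With dox it rose in Wt cells from day 0 to day 7 by 6.93 ± 1.55 on the log2 scale (edgeR adjusted p = 0.0490). Aplnr too was noted beforehand for lacking Spen-/- reads at day 7, so this test is no independent support for a rise. The adjusted p was between 0.0278 and 0.232 when single libraries were left out and missed 0.05 without Wt day 0 dox replicate 2 (0.0826), Wt day 7 dox replicate 1 (0.187) or replicate 2 (0.232). It was 0.127 by DESeq2.

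Kdr, the VEGF receptor of blood and endothelial precursors, had 34 and 105 reads in the Wt day 7 libraries and 0 in both Spen-/- day 7 libraries. Elsewhere it was uneven, with 27 and 0 reads in Wt and 10 and 0 reads in Spen-/- cells at day 0 and at most 1 read in any day 3 library. The Wt day 0 library with 27 reads had a summed level of 12 fibroblast markers of 173 CPM against 62.3 CPM in its replicate, and the Spen-/- day 0 libraries with 10 and 0 reads had 157 and 150 CPM, so a library near the same marker level had no Kdr read. The part of feeder cells in the day 0 reads of Kdr was not tested.

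**Figure D1:**
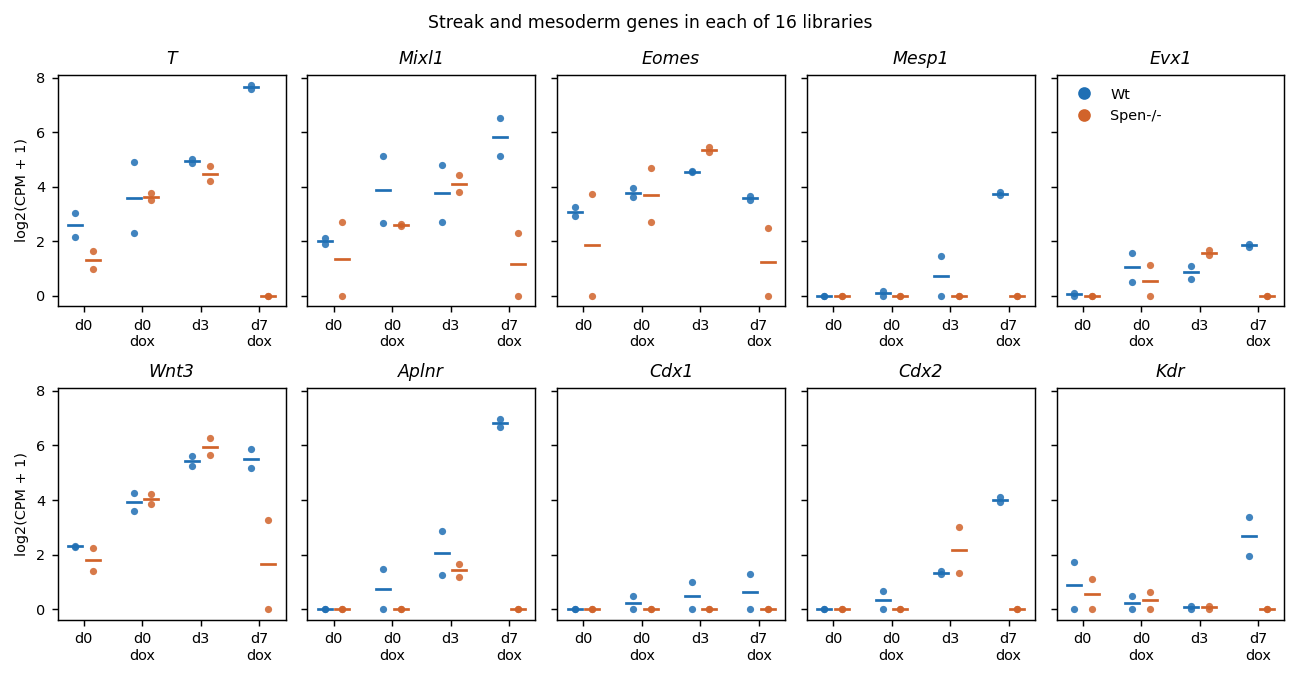
Level of each of the 10 genes in each library as log2(CPM + 1), with one point per library, a bar at the mean of the 2 replicates, Wt in blue and Spen-/- in orange; d0, d3 and d7 are days of differentiation. T, Mesp1, Aplnr and Cdx2 are highest in the Wt day 7 libraries and at 0 in both Spen-/- day 7 libraries, while the day 3 points of the genotypes lie close together for T and Wnt3.

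Read per kilobase of exon so that genes can be compared, T (83.0 and 91.1 CPM per kb) was the highest of the 10 in both Wt day 7 libraries. Aplnr followed at 27.2 and 33.7 and Mixl1 at 14.7 and 39.5 CPM per kb, and these overlapped. Wnt3 was at 11.5 and 18.5, Mesp1 at 9.38 and 10.2, Cdx2 at 7.11 and 6.33 and Eomes at 2.78 and 2.53 CPM per kb. At day 3 the order was different. Wnt3 had the highest mean in Wt cells (13.9 CPM per kb) and overlapped T (12.8), and it was highest in Spen-/- cells (24.9 and 15.9 CPM per kb in the 2 libraries), where T had a mean of 9.39 and Eomes of 9.68 CPM per kb.

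The first comparison asks whether the genes move when differentiation begins without dox. From day 0 to day 3 none of the 10 genes passed edgeR's adjusted threshold of 0.05 in Wt cells (0.43% of all tested genes were called higher) or in Spen-/- cells (0.573% called higher). At an unadjusted p under 0.05, 4 of 10 were higher in Wt (T, Wnt3, Aplnr and Cdx2, against 6.12% of all genes) and 5 of 10 in Spen-/- cells (the same 4 and Evx1, against 6.97%), and none was lower. DESeq2 called T and Wnt3 in Wt and T, Wnt3 and Cdx2 in Spen-/- cells. In both genotypes 7 of 10 genes, T, Mixl1, Eomes, Evx1, Wnt3, Aplnr and Cdx2, had both day 3 libraries above both day 0 libraries (background 28.1% in Wt and 24.6% in Spen-/- cells). The median log2 fold change over genes with a value, taking the bound where a group had 3 reads or fewer, was 2.43 over 10 genes in Wt and 3.31 over 8 genes in Spen-/- cells. It was 0.01 and 0 for all tested genes, where no bounds were used, so these medians were not computed alike. Mesp1 and Cdx1, which are in the Wt median, reached the cutoff of the filter on low counts only in Wt day 3 and Wt day 7 libraries. Their Wt day 3 values are thus no support for a rise.

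The second comparison asks whether Spen-/- cells differed from Wt at day 3, and here the libraries gave no call. None of the 10 genes (0% of all tested genes) had an adjusted p under 0.05 by edgeR. The deleted gene Spen was thus not called either, at 21.9 and 16.2 CPM in Wt against 0.315 and 1.61 CPM in Spen-/- cells. The test therefore missed even a difference of that size. None had an unadjusted p under 0.05 either (1.26% of all genes higher and 1.97% lower), and DESeq2 called none of the 10. T differed by -0.45 on the log2 scale, with a 95% interval from -2.02 to 1.12, Wnt3 by 0.55 (-1.78 to 2.88), Eomes by 0.83 (-2.51 to 4.18) and Mixl1 by 0.04 (-3.32 to 3.41). These intervals include a fall to 0.247-fold and a rise to 2.18-fold for T, the best measured of the 4, so a difference of that size was not detectable with 2 libraries a group. The genotype difference in the change from day 0 to day 3 was 1.35 ± 1.07 (SE) on the log2 scale for T and 1.12 ± 1.56 for Wnt3, and no gene of the 10 was called (0% of all genes). At day 0 without dox none was called (0% of all genes, so Spen was missed there too). T was lower in Spen-/- cells by 1.80 on the log2 scale at an unadjusted p of 0.0473 and an adjusted p of 0.984 by edgeR. At day 0 with dox none was called either (0.0826% of all genes).

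**Figure D2:**
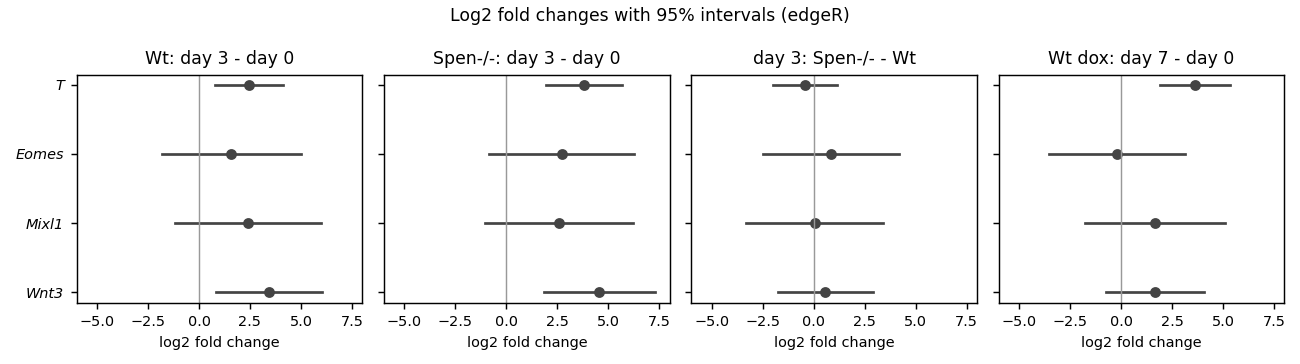
Log2 fold changes from edgeR (points) with 95% intervals (lines) for T, Eomes, Mixl1 and Wnt3, in 4 comparisons, with a grey line at 0. The intervals of T and Wnt3 lie above 0 for day 3 against day 0 in both genotypes, and all 4 intervals of Spen-/- against Wt at day 3 cross 0.

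Dox, with the sort that goes with it, gave no call among the 10 genes at day 0 in Wt (0.149% of all genes) or in Spen-/- cells (0.0716%). Among genes with more than 3 reads in all libraries compared, T in Spen-/- cells had the largest fold, at 7.42-fold higher with dox (2.10 and 0.954 CPM against 12.6 and 10.5 CPM, edgeR adjusted p = 0.347, DESeq2 adjusted p = 0.0167). In Wt cells T was higher by 1.61 on the log2 scale (adjusted p = 0.707), and lower by 0.48 once Wt day 0 dox replicate 1 was left out. That library alone had reads on all 10 genes at day 0.

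From day 0 to day 7 in Wt cells with dox, 2 of 10 genes were called higher, T and Aplnr, against 1.48% of all genes, and none was lower. These are the 2 genes noted beforehand for lacking Spen-/- reads at day 7, a lack that is plain only where Wt day 7 is high. Their tests and the count are thus no independent support for a rise. Cdx2 had an unadjusted p under 0.05, as 6.68% of all genes did in the higher direction. Mesp1 did too, but it reached the cutoff of the filter on low counts in both Wt day 7 libraries and in 1 other library, so it was tested only because it was high there and is no support for a rise. DESeq2 called T and Cdx2. Both Wt day 7 libraries lay above both day 0 dox libraries for 7 of 10 genes (T, Mesp1, Evx1, Wnt3, Aplnr, Cdx2 and Kdr, background 29.3%). The limits given for T, Aplnr and Mesp1 hold here too, so this count is no independent support for a rise. Mixl1, Eomes and Cdx1 overlapped between the days. The count of calls was 2 without Wt day 0 dox replicate 1 and 0 without any other single library of the comparison.

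At day 7 in dox, 9 of 10 genes had both Spen-/- libraries below both Wt libraries (33.2% of all tested genes did so), and Cdx1 was the exception. For 7 of the 10, T, Mesp1, Evx1, Aplnr, Cdx1, Cdx2 and Kdr, both Spen-/- libraries had 0 reads (19.1% of all tested genes). The Wt level was at least 1099-fold the level that 3 reads over both Spen-/- libraries would give for T, at least 612-fold for Aplnr, at least 83.2-fold for Cdx2 and at least 67.9-fold for Mesp1. For Kdr it was at least 33.1-fold, for Evx1 14.3-fold and for Cdx1 3.81-fold. Mixl1, Wnt3 and Eomes had reads in Spen-/- replicate 1 alone (31, 68 and 36 reads), and their log2 fold changes were -4.97, -3.40 and -2.25. All 10 genes were at 0 reads in Spen-/- replicate 2. Spen-/- day 0 dox libraries had 97 and 94 reads on T and 136 and 120 on Wnt3, so both genes were lower at day 7 than at day 0 in the Spen-/- libraries and higher in the Wt libraries. Of the 9092 tested genes with at least 100 reads in each Wt day 7 library, 163 (1.79%) had 0 reads in both Spen-/- libraries, and T, Mesp1, Aplnr and Cdx2 were among them. This comparison is a description, since the genes had been chosen with it in view.

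Genes of the streak and mesoderm programme, and of several other lists, were also at 0 reads in Spen-/- cells at day 7. Of 18 further transcription factors, 16 had reads in both Wt day 7 libraries and 12 of these had 0 in both Spen-/- libraries (12.5% of tested genes with reads in both Wt libraries). Among them were Lhx1, a factor of the anterior streak and its derivatives (500 and 419 Wt reads), Meox1, a somite factor (631 and 290), and Tbx6, the T-box factor of paraxial mesoderm (96 and 179). Mesp2, the partner of Mesp1 in somites, had 61 and 78 Wt reads and Gsc, the organizer gene, 91 and 67. In the WNT list, Rspo3, an agonist of WNT signalling, had 987 and 951 Wt reads and 0 in both Spen-/- libraries, as did Wnt5a (442 and 308) and Wnt8a (141 and 72), so 3 of 22 genes with Wt reads did, a share close to the 12.5% of all such genes. Apln, the apelin ligand whose receptor is Aplnr, had 120 and 154 Wt reads and 0 in both Spen-/- libraries. Snai1 and Cdh2, genes of the epithelial-mesenchymal transition that cells undergo in the streak, had 265 and 226 and 477 and 566 Wt reads against 0 and 0. In that list 4 of 10 genes with Wt reads had 0 in both Spen-/- libraries. Outside the streak the pattern was found in 4 of 10 endoderm markers with reads in both Wt libraries, 4 of 9 feeder fibroblast markers, 2 of 5 neuroectoderm markers, 4 of 9 blood and endothelial genes and 4 of 9 cardiac genes. No gene of the trophoblast and pluripotency lists had it. In the NODAL, BMP and FGF list 0 of 29 genes had it, and Nodal itself had 619 and 802 Wt reads and 277 and 360 Spen-/- reads.

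**Figure D3:**
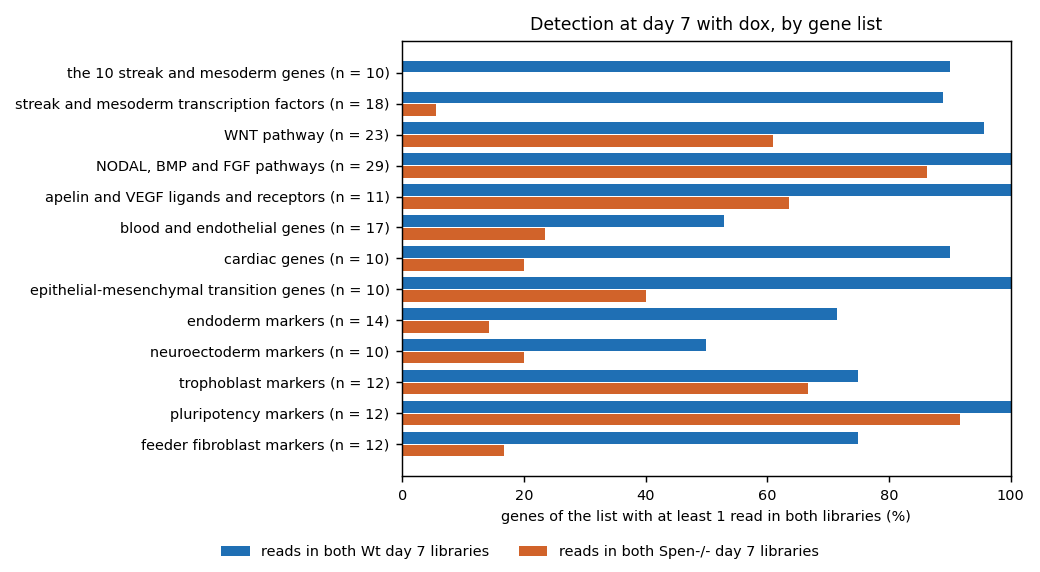
Share of each gene list with at least 1 read in both Wt (blue) or both Spen-/- (orange) day 7 libraries, in percent, with the number of genes in the list in brackets. The 10 genes have 9 detected in Wt and 0 in Spen-/- cells, while the pluripotency list has 12 and 11.

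Markers of other cell types moved with the genotype at day 7. The summed level of 12 pluripotency markers was 213 and 213 CPM in Wt and 2870 and 2876 CPM in Spen-/- cells. Of the 12, 9 were higher in both Spen-/- libraries than in both Wt libraries and 2 were lower. Of all tested genes 33.2% were lower in this way, and the share that were higher was not computed. Zfp42 had 224 and 209 Wt reads and 2509 and 2521 Spen-/- reads. The summed level of 12 trophoblast markers was 3549 and 3571 CPM in Wt and 7113 and 8660 CPM in Spen-/- cells. Most of the sum was from Krt8 and Krt18, keratins shared by many epithelia. Of these 12 markers, 6 were higher in both Spen-/- libraries than in both Wt libraries and 0 were lower. Tpbpa and Prl3d1, which define later trophoblast, were at 0 in all 4 libraries and Elf5 at 4 reads or fewer. The summed level of 14 endoderm markers was 207 and 184 CPM in Wt and 25.1 and 44.3 CPM in Spen-/- cells. The part of these other cell types in the zeros of the 10 genes was not tested.

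**Figure D4:**
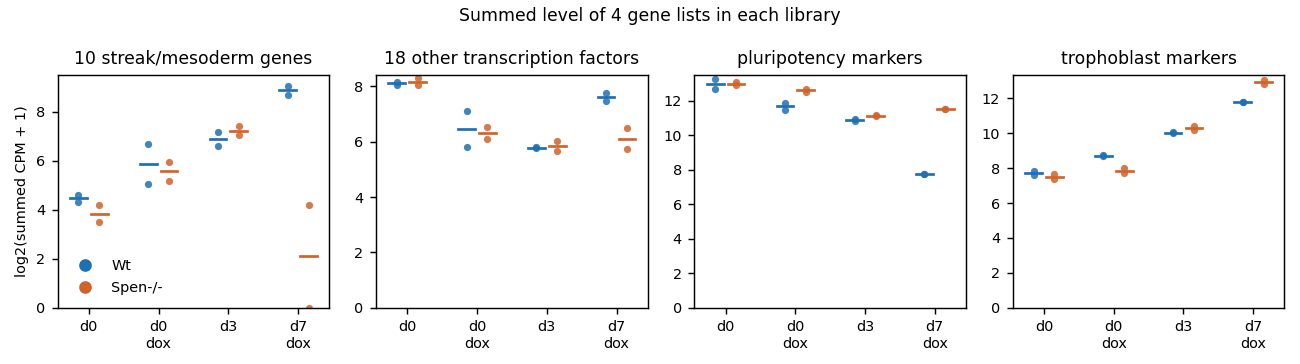
Summed CPM of 4 gene lists in each library, as log2(summed CPM + 1), with one point per library, bars at the mean of the 2 replicates, Wt in blue and Spen-/- in orange. The sum of the 10 genes is 407 and 535 CPM in Wt and 17.4 and 0 CPM in Spen-/- cells at day 7, where pluripotency markers are at 213 and 213 against 2870 and 2876 CPM.

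The rest of the streak pathway was followed through the tested comparisons. At day 3, 0.43% of all tested genes were called higher and 0.953% lower in Wt, and 0.573% higher and 0.656% lower in Spen-/- cells, which is the background of the counts that follow. At day 3 Wls, which carries WNT ligands to the cell surface, rose in Wt by 2.30 ± 0.480 (log2 fold change ± SE, adjusted p = 0.0403) and in Spen-/- cells by 2.77 ± 0.488 (adjusted p = 0.0181), the 1 of 22 tested WNT genes called in each. Nodal rose by 1.55 ± 0.303 in Wt and 1.74 ± 0.306 in Spen-/- cells, and Fgf5, a marker of epiblast exit, by 1.96 ± 0.280 and 2.01 ± 0.281. Fgf8, a ligand of the streak, rose in Wt by 5.46 ± 1.19 (adjusted p = 0.0485). Fgf4, the ESC ligand, fell by 2.76 in Wt and by 2.78 in Spen-/- cells on the log2 scale, and Spry2, an FGF feedback inhibitor, fell in Wt by 3.04. In that list of 29 tested genes, 3 rose and 2 fell in Wt and 2 rose and 1 fell in Spen-/- cells. Among the 18 further transcription factors (15 tested) Tbx3, a T-box factor of naive ESCs, fell by 4.31 in Wt and by 3.61 in Spen-/- cells, and none rose. Of 12 pluripotency markers, 6 fell in Wt and 7 in Spen-/- cells, where Dppa5a fell by 2.49 and 2.06, Zfp42 fell by 3.44 and 2.46 and Tcl1 fell by 4.45 in Wt and fell by 4.07 in Spen-/- cells. Krt8 rose by 3.65 ± 0.246 and 5.26 ± 0.268 and Krt18 by 2.95 ± 0.291 and 4.56 ± 0.314, the 2 called higher of 10 tested trophoblast markers in each genotype. Tfap2c, a factor of trophoblast and germ cells in the same list, fell by 1.74 in Spen-/- cells (adjusted p = 0.0391). Fn1, a matrix gene of mesenchyme, fell by 1.49 in Wt and 2.06 in Spen-/- cells, and Vim fell by 2.00 in Spen-/- cells. No gene was called among the apelin and VEGF, blood and endothelial, cardiac, endoderm, neuroectoderm or fibroblast lists at day 3 in either genotype.

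From day 0 to day 7 in Wt cells with dox, 1.48% of all tested genes were called higher and 3.09% lower. Wls rose by 3.22 ± 0.493 and Gsk3b, a kinase that restrains WNT signalling, by 2.30 ± 0.439, so 2 of 22 WNT genes rose. Id2, a BMP target, rose by 2.40 ± 0.314 and the receptor gene Fgfr2 by 2.27 ± 0.529, while Tdgf1, the NODAL co-receptor, fell by 2.28, Lefty2, a NODAL inhibitor, by 2.55 and Fgf4 by 5.66. In that list 2 of 29 genes rose and 6 fell. No gene of the 15 tested further transcription factors was called, 5 being higher at an unadjusted p under 0.05 (6.68% of all genes). Fn1 rose by 1.56 ± 0.253. Of 12 pluripotency markers 9 fell, where Dppa5a fell by 5.43, Zfp42 fell by 4.47 and Pou5f1 fell by 3.07. Of 10 tested trophoblast markers 6 rose, with Krt18 up by 3.33 ± 0.295, Krt8 by 2.90 ± 0.236 and Tfap2c by 1.45 ± 0.351. Pecam1, an endothelial gene also expressed in ESCs, fell by 3.75 and Tek, an angiopoietin receptor, from a mean of 15.6 CPM to 0 reads, so 2 of 11 tested blood and endothelial genes fell. Tubb3, a neuronal tubulin, fell by 5.37 and the surface marker Thy1 from 3.98 CPM to 0 reads. None of the 11 tested apelin and VEGF genes, 8 cardiac genes or 12 endoderm markers was called. With dox at day 0, Krt8 had a log2 fold change of -2.08 in Spen-/- against Wt cells, and it rose with dox by 2.45 in Wt and 1.68 in Spen-/- cells. Fgf5 rose with dox in Wt by 2.12 and Tcl1 fell by 2.19. No gene of these lists was called between genotypes at day 0 without dox or at day 3.

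Of the genes tested, those whose profile over the 16 libraries was nearest to a gene of the 10 were found by the mean absolute difference of log2(CPM + 1), each centred on its mean, over 14746 protein-coding genes. Nearest to T were Psmb8 (0.666), Tap2 (0.727) and Fzd2 (0.782), a WNT receptor. At day 7 Psmb8 had 2258 and 2012 reads in Wt and 13 and 45 in Spen-/- cells. Tap2 had 887 and 533 against 0 and 0, and Fzd2 602 and 363 against 1 and 0. Nearest to Aplnr were Tmem176a (0.596), Fstl4 and Dgkg, and nearest to Mesp1 Arsi (0.193), Samd3 and Unc5c. Nearest to Wnt3 were Lpar6 (0.536), Igdcc4 and Piezo2, and Lpar6 and Piezo2 were also among the 3 nearest to Mixl1, with Chst14. For Kdr they were Frem1, Isl1 and Pcdh9, for Evx1 Tia1, Epb41l2 and Gm9008 and for Cdx1 Pglyrp2, Kcnmb3 and Kcnh5. Small values for Mesp1, Cdx1, Evx1 and Kdr come with small ranges of the genes themselves, from 1.29 to 3.80 on that scale.

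Because the cells are hybrid, reads over strain variants could be split by allele. Autosomal genes with more than 20 such reads had a median Cast share of 0.468 to 0.500 per library. T was read from both alleles in the Wt day 7 libraries, with 318 of 576 and 361 of 601 assigned reads from Cast (shares of 0.552, 95% Wilson interval 0.511 to 0.592, and 0.601, 0.561 to 0.639). Aplnr was close to even there, with Cast shares of 0.542 (0.453 to 0.628) and 0.483 (0.394 to 0.573). Mixl1 was lower, at 0.392 (0.270 to 0.529) and 0.295 (0.225 to 0.375), and in the Spen-/- day 3 libraries at 0.152 (0.0665 to 0.309) and 0 of 26 reads, which allows a share of up to 0.129 by the same interval. In Wt day 3 replicate 1, however, 26 of 39 reads of Mixl1 were from Cast (0.667, 0.510 to 0.794), and 4 of 11 in replicate 2. The low Cast share of Mixl1 was thus not found in every library. At day 0 most libraries had reads of T from Cast alone. These were 20 of 20 and 6 of 6 reads in the Wt libraries without dox and 9 of 9 in Wt dox replicate 2. In Spen-/- cells they were 3 of 3 and 2 of 2 without dox and 24 of 24 in dox replicate 1, so several rest on few reads. The other day 0 libraries did not share the skew, with 77 of 123 reads of T from Cast in Wt dox replicate 1 and 8 of 21 in Spen-/- dox replicate 2. For Wnt3, 1 of 21 reads was from Cast in Wt day 0 dox replicate 2.

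**Figure D5:**
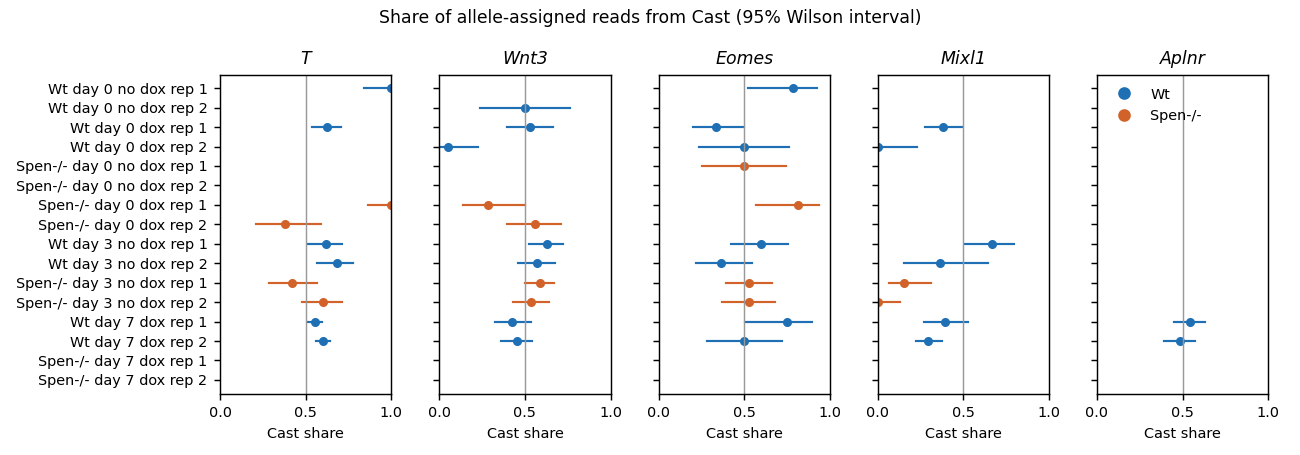
Share of allele-assigned reads from Cast (points) with 95% Wilson intervals (lines) for 5 of the genes in each library with at least 10 such reads, Wt in blue, Spen-/- in orange, and a grey line at an even share. In the Wt day 7 libraries the intervals of Wnt3 and Aplnr cross the line, those of T lie above it, and Mixl1 has shares of 0.392 and 0.295, with only the interval of the second wholly below it.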

How the data were processed

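RNA was measured in 16 libraries of 8 conditions. The authors deposited read counts per gene: total counts and counts split by allele. Per the labels and the study's methods, reads were mapped with HISAT2 2.2.1 to a variant-masked mm10 genome, split with SNPsplit, and counted per Ensembl gene with HTSeq 0.12.4; SAMtools 1.10 was used; the strand setting was not stated. Reads on no gene (31.6 to 45.4% of each library) were left out. Symbols came from GENCODE M21, which held 55240 of the 55421 genes.

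Counts were tested with edgeR 4.0.16 (R 4.3.3): filterByExpr with a minimum count of 10, TMM scaling, 1 quasi-likelihood fit of all 16 libraries and Benjamini-Hochberg adjustment over 18150 genes, in 9 comparisons. CPM uses TMM-scaled library sizes. The labels call the replicates biological. Whether they came from separate cultures of 1 clone or from several clones is not used here. The p-values measure the spread between the 2 libraries of a condition, pooled over all 8 conditions by the 1 fit. A gene whose replicates differ in another condition, the Spen-/- day 7 libraries included, thus has a larger SE in every comparison. Comparisons with Spen-/- day 7 libraries are described only. The fit was tested on simulated counts.

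The 10 genes and the other lists were chosen with earlier results of these data known. Named from each list were up to 3 called genes in each direction with the highest mean CPM, and for each of the 10 genes the 3 nearest profiles (those of Cdx2 and Eomes are not reported here); genes at 0 reads in Spen-/- day 7 libraries were named after their values were seen. Alternatives were RLE scaling, DESeq2 1.42.0, no filter, a replicate block, a fit of the compared libraries alone and each library left out. Replicate numbers did not pair the libraries (28 correlations of replicate differences between conditions, median 0.0172, 4 above 0.1).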

Additional observations from a re-analysis of the deposited data

Results flagged for a closer look

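T and Wnt3 moved in opposite directions in the genotypes between day 0 and day 7 with dox, in every library. The mean level of T went up by 185 CPM in Wt and down by 11.5 CPM in Spen-/- cells, so the Spen-/- change minus the Wt change was -197 CPM. For Wnt3 the changes were 31.6 CPM up and 11.1 CPM down, a difference of -42.7 CPM. The difference was not tested, because the Spen-/- day 7 libraries had a part in the choice of the genes.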

How the results depend on the processing

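Which of the 10 genes were called depended on the filter, the tool and single libraries. Over 49 pairs of a gene and a comparison with a fold, 430 values were computed under the alternatives and 21 changed sign, none of them past the threshold. Without the filter on low counts, 3 of the 10 genes were called at day 3 in Wt (949 of all genes), 4 at day 3 in Spen-/- (916) and 4 at day 7 in Wt (1418). In the same setting 1 was called between genotypes at day 0 with dox (385), 1 for dox in Wt (290) and 2 for dox in Spen-/- cells (252). The genotype comparisons at day 0 without dox, at day 3 and of the day 3 change had 17, 23 and 13 calls over all genes. DESeq2 called 2 of the 10 at day 3 in Wt (1235 of all genes), 3 at day 3 in Spen-/- (1204) and 1 for dox in Spen-/- cells (414). Over all genes it called 2016 at day 7 in Wt, 56, 545 and 15 between genotypes at day 0, at day 0 with dox and at day 3, 344 for dox in Wt and 7 for the genotype difference in the day 3 change. A fit of the compared libraries alone called 4 of the 10 at day 7 in Wt (1600 of all genes) and 0 genes in every other comparison. RLE scaling changed no call among the 10. The replicate numbers share no culture or day in the labels, and with the replicate block 1 of the 10 was called at day 3 in Spen-/- (T, adjusted p = 0.0472) and 1 at day 7 in Wt (T). With the block, 47 genes were called for dox in Wt and 8 for dox in Spen-/- cells.

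With single libraries left out, the counts over all genes ran from 30 to 655 at day 3 in Wt, 55 to 260 at day 3 in Spen-/- and 270 to 505 at day 7 in Wt. They ran from 0 to 2 between genotypes at day 0, 2 to 15 at day 0 with dox, 3 to 187 for dox in Wt and 3 to 40 for dox in Spen-/- cells. Of the 10 genes, 0 to 2 were called at day 7 in Wt and 0 elsewhere. The log2 fold change of T with dox in Wt at day 0 ran from -0.48 to 2.46, and that of Mixl1 between genotypes at day 3 from -0.68 to 1.57. Folds were not computed where a group kept 3 reads or fewer. The causes of these changes were not tested. With 2 libraries a group, the lone library left in a group is assumed to vary like the others, and a gene with 41 reads in a library can be at 0 in its replicate.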
